A study of Mus musculus with 9 samples.

Results

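Homer1 circular RNAs (circRNAs) that came down with HuD from mouse striatum are described here, beside the same circRNAs in the control precipitates. They are the array features that the authors' tables of circRNAs higher in HuD RIP, against IgG RIP or against WT RIP, assign to the host gene Homer1. There were 4 such features among 737 listed in those tables and 14330 on the array. All 4 were chosen by their signal in HuD RIP against IgG RIP, and mmu_circRNA_19101 was also listed against WT RIP. Their differences between HuD RIP and the controls are therefore given as descriptions, without a test.

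HuD, also named ELAVL4, belongs to the ELAV family of neuronal proteins that bind AU-rich elements of mRNAs and stabilize them. In an RNA immunoprecipitation (RIP), an antibody isolates a protein from tissue together with the RNA bound to it. HuD RIP was made from the striatum of adult HuD transgenic mice, which overexpress myc-tagged HuD, with an anti-myc tag antibody. WT RIP used the same antibody on wild type striatum, which carries no tagged protein. IgG RIP, in the methods of the study, used nonimmune IgG on HuD transgenic striatum, although the sample labels of this group name the anti-myc tag antibody. The transgene is driven by the Camk2a promoter, which is active in forebrain neurons, on a C57BL/6J background. Each group had 3 arrays, each from a separate RIP on pooled tissue.

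Homer1 encodes a scaffold protein of the postsynaptic density at excitatory synapses. Long Homer proteins link group I metabotropic glutamate receptors to Shank proteins and to inositol trisphosphate receptors. The short form Homer1a is induced by neuronal activity, ends in sequence that is intronic for the long forms, and uncouples these links. CircRNAs arise when a downstream splice donor is joined to an upstream acceptor, which leaves a closed circle that resists the exonuclease RNase R. An array feature for a circRNA is placed on that join, so its sequence holds the end of the circle followed by its beginning.

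Of the 4 Homer1 circRNAs, 3 open at nearly the same base of chromosome 13 and the fourth lies further along the gene. All are on the plus strand. Positions are as the authors' tables give them. The tables name no genome build, and all 4 intervals lie inside Homer1 on GRCm38.p6 (RefSeq). mmu_circRNA_010239 is annotated as exonic in NM_147176 and runs from 93341755 to 93356079. mmu_circRNA_19101 is annotated as intronic in ENSMUST00000109497 and runs from 93341753 to 93356080, 2 bases earlier at the start and 1 base later at the end. mmu_circRNA_26702, also annotated as intronic in ENSMUST00000109497, has the start of mmu_circRNA_010239 and ends at 93357647, which is 1568 bases beyond the end of mmu_circRNA_010239. mmu_circRNA_26706, annotated as exonic in NM_147176, runs from 93387523 to 93393108 and starts 31444 bases after mmu_circRNA_010239 ends. NM_147176 is among the RefSeq transcripts of Homer1. The names exonic and intronic below follow these annotations, and the junctions were not placed on exons.

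**Figure D1:**
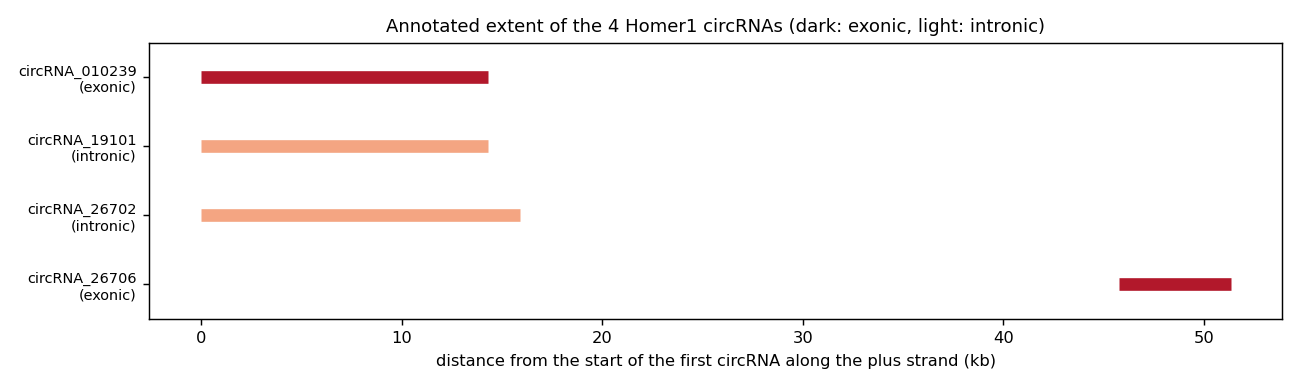
Annotated extent of the 4 Homer1 circRNAs, drawn to scale in kb from the start of mmu_circRNA_010239 (x axis), with 1 row for each circRNA and the annotated class in colour. The first 3 circles overlap almost entirely, and mmu_circRNA_26706 is separate from them.

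The junction sequences show how far the features can be told apart, so all 4 are printed, 5′ to 3′. In the first 3, capitals mark the bases that precede a run of 27 bases held by all 3. In mmu_circRNA_26706 they mark a match to a miRNA seed that is described further on.
mmu_circRNA_010239: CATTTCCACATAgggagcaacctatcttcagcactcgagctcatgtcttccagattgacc
mmu_circRNA_19101: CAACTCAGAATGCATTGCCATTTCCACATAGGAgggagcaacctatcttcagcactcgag
mmu_circRNA_26702: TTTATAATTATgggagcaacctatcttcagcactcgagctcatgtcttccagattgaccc
mmu_circRNA_26706: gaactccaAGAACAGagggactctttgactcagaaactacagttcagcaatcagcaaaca

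mmu_circRNA_010239 and mmu_circRNA_26702 shared an unbroken run of 48 of 60 bases and differed in the first 12 and 11 bases respectively. mmu_circRNA_19101 held the junction of mmu_circRNA_010239 with 3 bases added, the same number by which its annotated interval is longer. The longest run that mmu_circRNA_26706 shared with any other of the 4 was 8 bases. How much RNA of 1 of the first 3 circles bound to the features of the others was not tested. Signal strengths of different features are not compared as amounts of RNA, since each feature hybridizes with its own strength.

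Each value below is the log2 of the processed signal, which is the background-subtracted spot intensity, minus the 75th percentile of the array on that scale. A feature counts as well above background on an array where the scanning software marked it so. All 4 features were measured by 1 spot on each array, no spot was marked as an outlier, and none was saturated. The 4 passed the filter for testing, which left 6871 features with a signal well above background on 3 or more of the 9 arrays. HuD RIP arrays were brighter than the controls. Their 75th percentiles were 3.49 to 5.46 (log2), against 2.35 to 3.51 on the WT RIP arrays and 2.04 to 2.42 on the IgG RIP arrays. The share of features well above background lay between 43.7% and 73.9% in HuD RIP, between 25.4% and 44.6% in WT RIP and between 21.7% and 26.3% in IgG RIP.

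The exonic circle mmu_circRNA_010239 was highest in HuD RIP. In HuD RIP replicates 1, 2 and 3 the scaled log2 values were 3.84, 3.00 and 3.13. WT RIP gave 2.66, 0.82 and 0.79. IgG RIP gave 1.91, 1.92 and 1.73. The lowest HuD RIP value exceeded the highest of the 6 controls, and WT RIP replicate 1 stood apart from the other WT RIP arrays and above IgG RIP. Group means were 3.32 ± 0.46 in HuD RIP, 1.42 ± 1.07 in WT RIP and 1.85 ± 0.11 in IgG RIP (SD, n = 3). The mean in HuD RIP was 3.73-fold that in WT RIP (log2 difference 1.90, SE 0.51) and 2.77-fold that in IgG RIP (1.47, SE 0.51). The feature was well above background on all 9 arrays. Before scaling, its processed signal was 633, 89.8 and 161 in HuD RIP, 72.0, 9.00 and 12.2 in WT RIP and 20.2, 15.5 and 13.8 in IgG RIP, for replicates 1, 2 and 3.

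The longer intronic circle mmu_circRNA_26702 was also highest in HuD RIP. HuD RIP gave scaled log2 values of 3.93, 3.07 and 3.20. WT RIP gave 2.72, 0.48 and 0.52. IgG RIP gave 1.94, 1.88 and 1.67. As for the exonic circle, the HuD RIP arrays lay above all others and WT RIP replicate 1 was the highest control. The group means were 3.40 ± 0.46, 1.24 ± 1.28 and 1.83 ± 0.14 in HuD RIP, WT RIP and IgG RIP (SD, n = 3). The fold was 4.47 over WT RIP (log2 difference 2.16, SE 0.56) and 2.97 over IgG RIP (1.57, SE 0.56). This feature too was well above background on all 9 arrays.

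mmu_circRNA_19101, the intronic circle with the 3 added bases, was the feature listed against both controls. HuD RIP gave scaled log2 values of 2.07, 1.21 and 1.47. WT RIP gave 0.64, -2.33 and -0.56, and replicates 2 and 3 were not well above background. IgG RIP gave 0.66, 0.12 and 0.70, and replicate 2 was not well above background. No HuD RIP array overlapped a control array. The group means were 1.58 ± 0.44 in HuD RIP, -0.75 ± 1.49 in WT RIP and 0.49 ± 0.32 in IgG RIP (SD, n = 3). The fold was 5.04 over WT RIP (log2 difference 2.33, SE 0.62) and 2.13 over IgG RIP (1.09, SE 0.62). Since 1 WT RIP array gave a measured signal, the fold over WT RIP rests on that array and on 2 dim spots, and without WT RIP replicate 2 the log2 difference was 1.54.

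The downstream exonic circle mmu_circRNA_26706 was well above background on all HuD RIP arrays and on none of the IgG RIP arrays. HuD RIP gave scaled log2 values of 0.36, 0.15 and 0.73. WT RIP gave 0.29, -1.80 and -0.14, and replicate 2 was not well above background. IgG RIP gave -2.51, -0.59 and -1.05, and none of these was well above background. HuD RIP replicate 2 lay below WT RIP replicate 1, so HuD RIP and WT RIP overlapped. The group means were 0.42 ± 0.29, -0.55 ± 1.105 and -1.38 ± 1.001 in HuD RIP, WT RIP and IgG RIP (SD, n = 3). The fold over WT RIP was 1.96 (log2 difference 0.97, SE 0.60), and it fell to a log2 difference of 0.34 without WT RIP replicate 2. Against IgG RIP the signal has only a bound, and HuD RIP was at least 1.38-fold higher, where the bound sets the HuD RIP mean against the lowest signal well above background on the IgG RIP arrays.

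**Figure D2:**
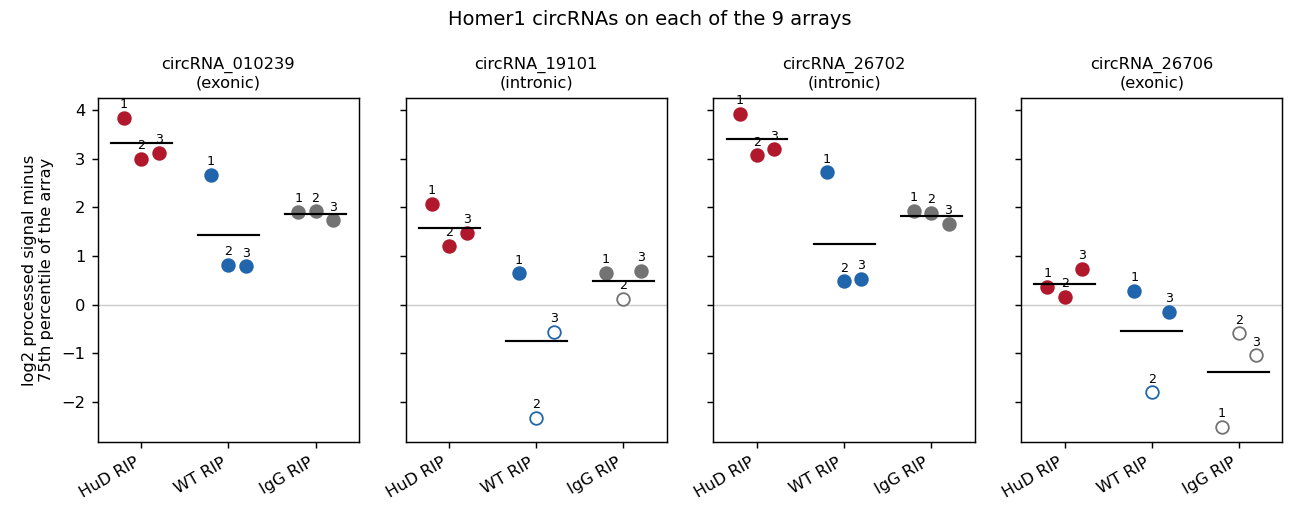
Scaled log2 signal (y axis) of the 4 Homer1 circRNAs on each array of HuD RIP, WT RIP and IgG RIP, with the replicate number beside each point and a line at the group mean (n = 3). Open points were not well above background on that array. HuD RIP lies above both controls in the first 3 panels, and in the fourth it overlaps WT RIP.

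In counts, all HuD RIP arrays were above all IgG RIP arrays for 4 of the 4 circRNAs, against 20.9% of the 6868 tested features with a value on every array. All HuD RIP arrays were above all WT RIP arrays for 3 of the 4, against 14.9%, and above all 6 control arrays for the same 3, against 12.5%. Because the 4 were picked from features that the authors called higher in HuD RIP, nothing is read from these shares. The median difference over the 4 was 2.03 in HuD RIP minus WT RIP and 1.52 in HuD RIP minus IgG RIP, on the log2 scale, or 1.28 in the latter with mmu_circRNA_26706 at its bound, while the median over all tested features was -0.36 and -0.29. Both differences use the same HuD RIP arrays. Without scaling, the medians over all tested features were 1.13 and 1.93, and the shares of features clear of WT RIP and IgG RIP were 32.5% and 84.6%. Relative to the median of all tested features, the median of the 4 was higher by 2.39 over WT RIP and 1.81 over IgG RIP, with or without this scaling, and by 1.21 and 1.17 with normexp background correction. With 4 other scalings, with none and with 2 other treatments of the background, 3 of the 4 were clear of WT RIP and 4 of IgG RIP, as in the main scaling. The rank of the unscaled signal within an array, which a shift of the whole array cannot change, gave the same counts of 3 and 4. mmu_circRNA_010239 stood at percentile 96.9 to 98.9 of all features in HuD RIP, compared with 83.0 to 95.9 for WT RIP and 90.3 to 91.2 for IgG RIP. mmu_circRNA_26706 stood at percentile 77.2 to 83.5, 49.7 to 78.6 and 7.20 to 66.8 in these groups.

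Listing in the authors' tables asked for a fold change over 1.5 with a p-value under 0.05. On the authors' normalized log2 values, mmu_circRNA_26706 was nearest to that limit, with a difference of 0.67 over IgG RIP, and mmu_circRNA_19101 followed with 0.71. mmu_circRNA_010239 was at 1.38 and mmu_circRNA_26702 at 1.60 on the same values. Against WT RIP, mmu_circRNA_19101 was at 1.14, and the others were not listed, so features just outside the limit have no value here on that scale.

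**Figure D3:**
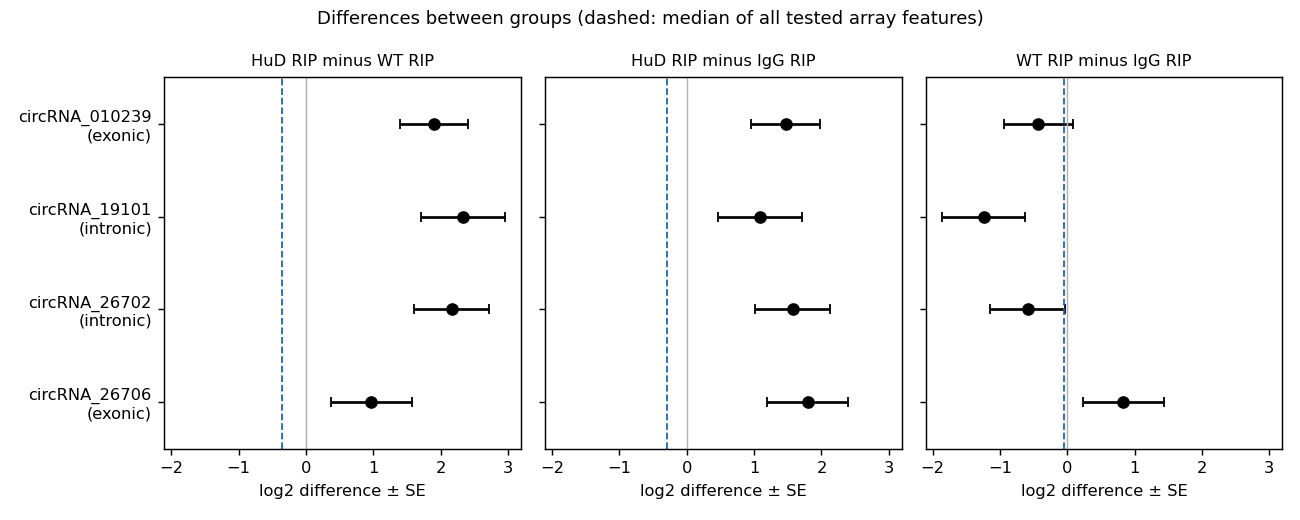
Log2 differences between group means (x axis, with the SE of the limma fit to all 9 arrays) for each Homer1 circRNA, with 1 panel per pair of groups. The dashed line is the median of all tested features. All 4 circRNAs lie to the right of 0 in both HuD RIP panels, and the 3 overlapping circles lie to the left in WT RIP minus IgG RIP. Points of mmu_circRNA_26706 against IgG RIP rest on spots that were not well above background there.

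The comparison of the controls, WT RIP minus IgG RIP, sets the anti-myc tag antibody on wild type striatum against IgG on HuD transgenic striatum. By the methods of the study, antibody and genotype both differ in it and cannot be told apart. This comparison did not define the list. The IgG RIP arrays did enter the choice of all 4 features, and the WT RIP arrays that of mmu_circRNA_19101. The limma test is therefore not independent of the choice. P-values were adjusted over all 6871 features by the Benjamini-Hochberg method. None of the overlapping circles passed an adjusted p of 0.05, against 0.0146% of all tested features, which is a single feature. Unadjusted p was under 0.05 for 393 features. The log2 difference was -0.43 for mmu_circRNA_010239 (limma adjusted p = 0.999, 95% interval -1.54 to 0.68), -0.59 for mmu_circRNA_26702 (limma adjusted p = 0.999, -1.80 to 0.63) and -1.24 for mmu_circRNA_19101 (limma adjusted p = 0.943, -2.59 to 0.10). For mmu_circRNA_26706, which was not well above background on any IgG RIP array, no difference is given. That feature passed the filter only through its HuD RIP arrays, the group it was chosen by, so its test is not reported.

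Single arrays and the processing moved these values. Without WT RIP replicate 1 they were -1.05, -1.33 and -1.94 for mmu_circRNA_010239, mmu_circRNA_26702 and mmu_circRNA_19101. Without WT RIP replicate 2 they were -0.13, -0.21 and -0.45, and without WT RIP replicate 3 they were -0.11, -0.23 and -1.34. The difference turned above 0 for mmu_circRNA_010239 and mmu_circRNA_26702 without scaling (0.29 and 0.13), with normexp (0.0797 and 0.13) and with the uncorrected signal (0.0407 and 0.15). WT RIP and IgG RIP overlapped for all 4 circRNAs. Over the 6868 tested features with a value on every array, these groups did not overlap, in either direction, for 14.7%. Overlap was thus the usual state and nothing is read from it.

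WT RIP replicate 1 was the highest WT RIP array for all 4 circRNAs. Without it, the log2 difference between HuD RIP and WT RIP was 2.52 for mmu_circRNA_010239, 2.90 for mmu_circRNA_26702, 3.03 for mmu_circRNA_19101 and 1.39 for mmu_circRNA_26706. WT RIP replicate 1 was also the brightest control array, with a 75th percentile of 3.51, and HuD RIP replicate 2 was the HuD RIP array nearest to it, with 3.49. Between these 2 arrays alone, compared after the values were seen, the processed signal of mmu_circRNA_010239 was 89.8 in HuD RIP and 72.0 in WT RIP, a log2 difference of 0.33. It was 94.6 and 74.8 for mmu_circRNA_26702, a difference of 0.35, and 26.0 and 17.7 for mmu_circRNA_19101, a difference of 0.57. For mmu_circRNA_26706 it was 12.5 and 13.9, a difference of -0.13. The median over all tested features was -0.09 for this pair of arrays. Each comparison is of a single array per group and has no replicate check.

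Array brightness rose together with the HuD RIP group, and its part in the differences was only measured as follows. When the fit took this percentile as a covariate, the difference over WT RIP was 0.79 for mmu_circRNA_010239, 0.91 for mmu_circRNA_26702, 0.90 for mmu_circRNA_19101 and 0.50 for mmu_circRNA_26706. Over IgG RIP it turned to -0.17, -0.28 and -1.03 for the first 3. No IgG RIP array was as bright as any HuD RIP array, so brightness and group cannot be told apart in that comparison.

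Position on the slides differed between groups as well. Slides were told apart by scan date only. All WT RIP arrays and HuD RIP replicate 1 were in row 1 of slide 1, with the other HuD RIP arrays and IgG RIP replicates 1 and 2 in row 2, and IgG RIP replicate 3 on slide 2. Within row 1, HuD RIP replicate 1 was above the WT RIP mean by 2.42, 2.69, 2.82 and 0.92 for mmu_circRNA_010239, mmu_circRNA_26702, mmu_circRNA_19101 and mmu_circRNA_26706 in that order. Within row 2, HuD RIP was above IgG RIP by 1.15, 1.23 and 0.95 for the first 3.

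**Figure D4:**
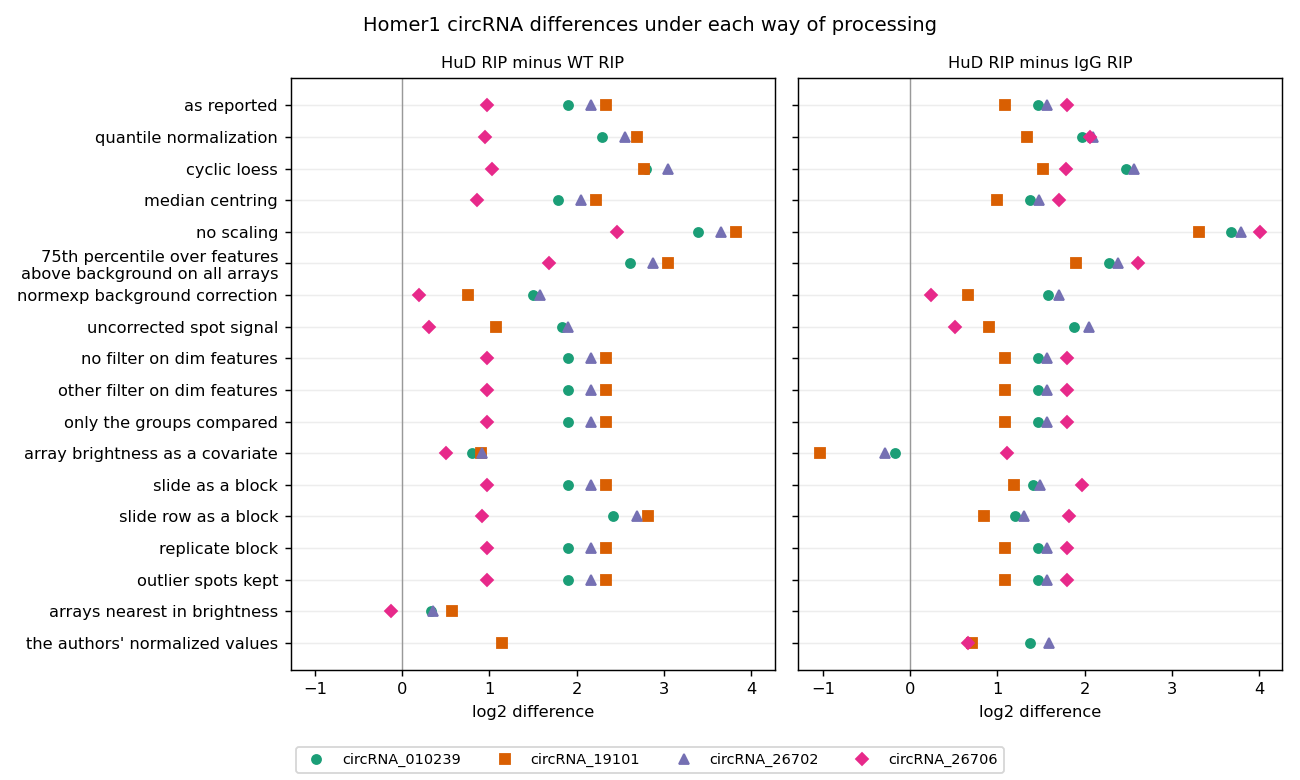
Log2 differences (x axis) of the 4 Homer1 circRNAs between HuD RIP and each control under each way of processing the values (rows). All points lie above 0, except those of the 3 overlapping circles over IgG RIP with array brightness as a covariate and that of mmu_circRNA_26706 over WT RIP on the arrays nearest in brightness. Points of mmu_circRNA_26706 over IgG RIP rest on IgG RIP spots that were not well above background.

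Differences between 2 features on the same array are free of the scaling. Their size depends on how strongly each feature hybridizes, so only their change from array to array is described. The gap between mmu_circRNA_010239 and mmu_circRNA_26702 ran from -0.09 to 0.34 (log2) over the 9 arrays, and both were well above background on all of them. It was -0.08 ± 0.01 in HuD RIP, 0.18 ± 0.21 in WT RIP and 0.03 ± 0.04 in IgG RIP (SD, n = 3). The HuD RIP gaps, from -0.09 to -0.07, lay below those of the 6 control arrays. The lowest control gap was -0.05, in WT RIP replicate 1. On every array the 2 signals differed by at most 1.04 times their combined error, so this order is not read. The gap between mmu_circRNA_010239 and mmu_circRNA_19101 was 1.74 ± 0.07 in HuD RIP. It was 1.26 and 1.04 on the 2 IgG RIP arrays and 2.02 on the WT RIP array where both were measured. Between mmu_circRNA_010239 and mmu_circRNA_26706 it was 3.48, 2.84 and 2.39 in HuD RIP and 2.37 and 0.93 in WT RIP replicates 1 and 3, where both were measured.

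The change in the gap between WT RIP and IgG RIP was compared with an exact two-sided permutation test over 6 pairs of features. With 3 arrays against 3 its smallest p is 0.1, so no pair could pass 0.05. For mmu_circRNA_010239 against mmu_circRNA_26702 the change was 0.16 (exact permutation p = 0.4, adjusted p = 0.4). In the other 5 pairs at least 1 feature was not well above background on some control arrays, and their changes are not read.

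**Figure D5:**
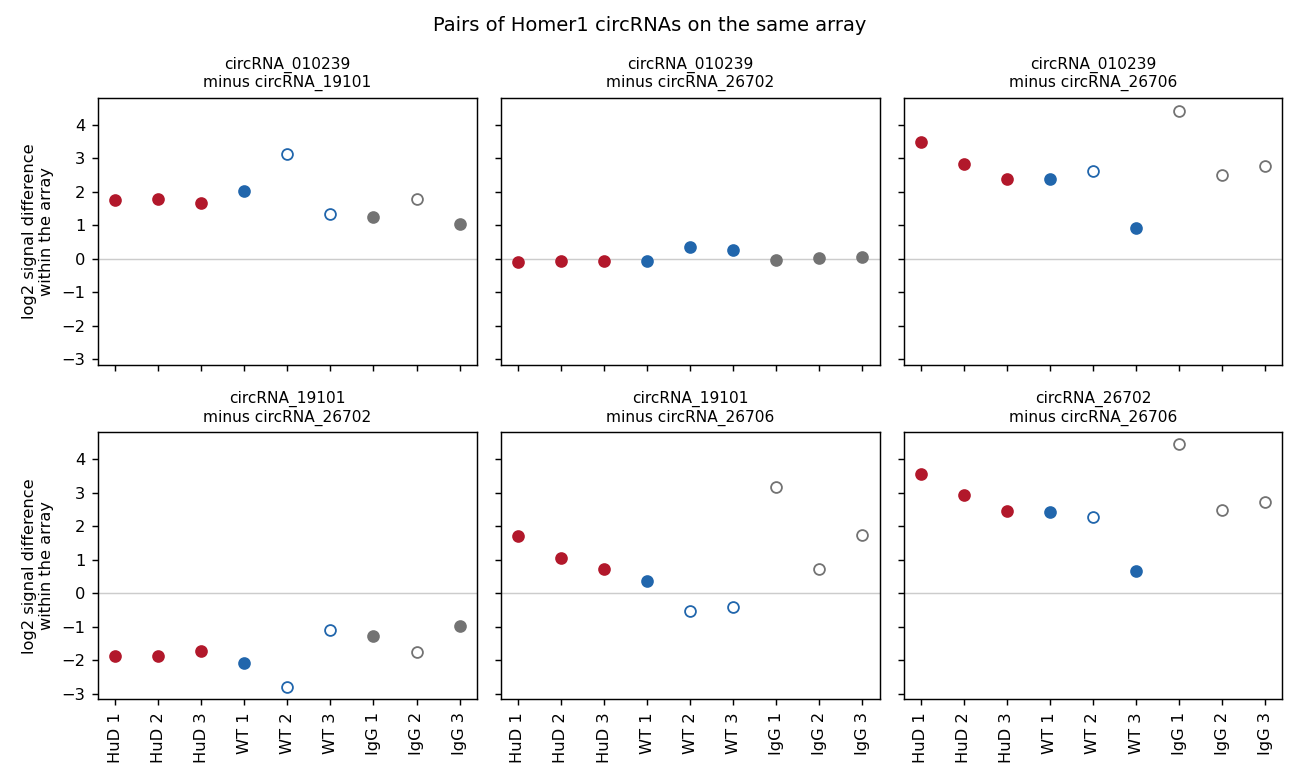
Log2 difference in processed signal between 2 Homer1 circRNAs on the same array (y axis), for the 6 pairs and the 9 arrays (x axis, group and replicate number). Open points are arrays where at least 1 of the 2 was not well above background. The pair mmu_circRNA_010239 and mmu_circRNA_26702 stays between -0.09 and 0.34 on all arrays.

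Over the 9 arrays, the scaled signals of mmu_circRNA_010239 and mmu_circRNA_26702 had a Pearson correlation of 0.998. The correlation of mmu_circRNA_19101 was 0.885 with the first and 0.901 with the second, and that of mmu_circRNA_26706 with the other 3 was 0.540 to 0.617. These are descriptions over 9 arrays that share the group differences and the brightness of each array. mmu_circRNA_26706 was well above background on only 5 of the 9 arrays and mmu_circRNA_19101 on 6. Their correlations, here and below, therefore include dim spots and are not read as a pattern of their own. Among 730 other tested features with a host gene named in the tables, the circRNAs most like mmu_circRNA_010239 included those from Abr (r = 0.986) and Dcun1d4 (0.977). For mmu_circRNA_26702 they included those from Abr (0.979) and Grm5, which encodes the Homer-binding receptor mGluR5 (0.976). For mmu_circRNA_19101 they were from Tulp4 (0.953), DOKist4 (0.947) and the adhesion receptor gene Adgrl3 (0.945). For mmu_circRNA_26706 they were from Grid1, which encodes a delta-type glutamate receptor (0.937), Gm608 (0.921) and Cacng3, an auxiliary subunit gene of AMPA receptors (0.921). The median correlation over the 730 features was 0.649 to 0.824 for the 4 circRNAs, so a high correlation was common among features listed as higher in HuD RIP.

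Homer1 was among 6 host genes with 4 or more listed circRNAs, of 548 host genes in the tables. Tulp4 had 5, and Anks1b, Camta1, Mboat2 and Ube2e2 had 4 each. Of the listed host genes, 403 had a single circRNA. Only listed features carried a gene name here, so the number of features per host gene on the whole array is not known. The overlapping Homer1 features also share much of their junction sequence. Nothing is read from these counts.

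Host genes that encode partners of Homer1 at the synapse were looked up from a list of 43 genes for receptors, scaffolds, channels and kinases. The tables named 18 circRNAs of 10 of these genes, and all 18 were tested. WT RIP minus IgG RIP is not read for the 18, since the arrays of both groups also entered the listing. Several of them, including both Grm5 circRNAs, passed the filter only through their HuD RIP arrays. All HuD RIP arrays were above all IgG RIP arrays for 17 of the 18 and above all WT RIP arrays for 8, with the shares of all tested features given above. Here too the listing itself used these contrasts, and nothing is read from the counts. The median log2 difference over the 18 was 1.51 in HuD RIP minus WT RIP and 1.89 in HuD RIP minus IgG RIP. Circles of Camk2d, Dlg1, Dlg2, Dlg4, Gria2 and Grm5 were among those not well above background on any IgG RIP array. The median over IgG RIP therefore rests in part on dim spots and is not a measured size.

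Grm5 had 2 listed circRNAs. mmu_circRNA_41820 was at 1.57 ± 0.72 in HuD RIP, -1.17 ± 1.54 in WT RIP and 0.01 ± 0.22 in IgG RIP, where it was not well above background on any array (scaled log2, SD, n = 3). mmu_circRNA_41814 was at 1.53 ± 0.97, -0.87 ± 1.71 and -1.48 ± 0.70. The latter was also below that limit on every IgG RIP array. Both had a wide spread in WT RIP, where each was well above background on only 1 array. Dlgap1, which encodes a scaffold that links PSD-95 to Shank proteins, had mmu_circRNA_30835 at 2.56 ± 0.56 in HuD RIP, 0.22 ± 1.54 in WT RIP and 0.58 ± 0.30 in IgG RIP. It was well above background on 2 WT RIP arrays. A further Dlgap1 circle, mmu_circRNA_011419, differed less, at 2.39 ± 0.42, 1.68 ± 0.31 and 1.47 ± 0.06, and was well above background on every array. Gnaq, the G protein subunit that couples mGluR5 to phospholipase C, had mmu_circRNA_32264 at 3.05 ± 0.37, -0.68 ± 1.49 and -0.41 ± 0.46. This circle was well above background on 2 WT RIP arrays and 1 IgG RIP array. Dlg4, which encodes PSD-95, had an exonic circle, mmu_circRNA_23602, at 4.12 ± 0.24, 3.53 ± 0.12 and 4.23 ± 0.16, and this was the 1 of the 18 that did not stand above IgG RIP. A circle annotated as antisense at Dlg4, mmu_circRNA_23603, was at 3.32 ± 0.61, -0.71 ± 0.45 and -1.07 ± 0.69, the widest differences of the 18 over both controls. It was well above background on 1 WT RIP array and on no IgG RIP array. Gria2, an AMPA receptor subunit gene, had mmu_circRNA_35640 at 3.37 ± 0.49, 2.72 ± 0.85 and 2.60 ± 0.20. A further Gria2 circle, mmu_circRNA_35637, was at 0.90 ± 0.43, -0.16 ± 0.90 and -1.11 ± 0.99. It was not well above background on any IgG RIP array.

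Genes of cell types were looked up among the listed circRNAs only. Listing asked for a higher signal in HuD RIP, so which of these genes appear is no check of the labelled tissue. Among 12 genes of striatal medium spiny neurons, the tables named a circRNA of Bcl11b, a transcription factor gene of these neurons, at 2.98 ± 0.95 in HuD RIP, 0.20 ± 0.05 in WT RIP and -0.53 ± 0.81 in IgG RIP. The Bcl11b circRNA was well above background on 1 IgG RIP array. Among 5 astrocyte genes the tables named 1 circRNA of the glutamate transporter gene Slc1a2, at 2.78 ± 0.49, 2.02 ± 0.89 and 2.07 ± 0.09. No circRNA was named for 5 oligodendrocyte genes, for 4 microglial genes or for Elavl4, the gene of HuD, so these were not analysed here. The part of other cell types in the Homer1 values was not tested, and in a RIP fewer bound molecules and less input RNA cannot be told apart.

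The junction sequences of the 4 circles were searched on both strands, with overlaps counted, for short motifs of the kind that ELAV proteins are known to bind, and held none of them. The core of AU-rich elements, ATTTA, was on the printed strand of 5.29% of the 737 listed features and on the other strand of 3.80%. For the U-rich run TTTTT these shares were 3.66% and 8.41%. For the GU-rich run TGTGTG the share was 2.17% on either strand. A junction sequence covers 60 bases of the circle and says nothing of the rest. The content of A and T was 51.7% for mmu_circRNA_010239 and mmu_circRNA_19101 and 56.7% for mmu_circRNA_26702 and mmu_circRNA_26706, against a median of 55.0% and a range of 33.3% to 68.3% over the listed features.

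The tables also list 5 miRNAs with predicted sites for each circRNA. The 2 intronic circles shared mmu-miR-1187, mmu-miR-466c-5p and mmu-miR-466f, and their other names were mmu-miR-669k-5p and mmu-miR-669f-5p for mmu_circRNA_19101 and mmu-miR-466a-5p and mmu-miR-466e-5p for mmu_circRNA_26702. The 2 exonic circles shared no name with each other or with the intronic circles. A miRNA of the mir-466, mir-467, mir-669 or mir-1187 names was listed for 74 of the 737 circRNAs, and mmu-miR-1187 for 2.17%. Of the 17 names listed for Homer1 circRNAs, 10 had a mature sequence in the RefSeq table (GRCm38.p6). Both sequences that bear on these lists are printed with the seed, bases 2 to 8, in capitals.
mmu-miR-1187: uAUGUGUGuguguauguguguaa
mmu-miR-6932-3p: uCUGUUCUgcuuccucugcag

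The complement of the seed of mmu-miR-1187 is in neither of the junction sequences of the intronic circles. mmu-miR-6932-3p was listed for mmu_circRNA_26706, whose junction sequence holds the complement of its seed, AGAACAG, at bases 9 to 15. That complement occurred in 1.63% of the 737 junction sequences on the printed strand. It was the only match among the miRNAs with a sequence and the junction sequence of the circle they were listed for. These lists are predictions and no binding of a miRNA was measured.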

How the data were processed

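RNA from 9 immunoprecipitates of mouse striatum was measured on 1-colour Arraystar Mouse circRNA V2 arrays after RNase R digestion, random-primed amplification and Cy3 labelling by the authors' service provider. Per the file headers, the deposited intensity values came from Feature Extraction 11.0.1.1, which subtracts the background from the processed signal without normalizing between arrays. The authors' deposited tables hold log2 values normalized by a method not given in the sources used here, beside p-values, false discovery rates and fold changes, which were not used. The authors' processing notes name limma. A further 20 value columns of these tables were not used.

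The non-control spots of each array (15176) formed 14330 features. Outlier spots were left out (269 values), spots of a feature were averaged, log2 values were reduced by the 75th percentile of each array, and a feature counted as well above background where 0.5 or more of its spots did. In R 4.3.3, limma 3.58.1 fitted 1 mean per group to the 9 arrays (6 residual and 6.42 prior degrees of freedom) over 6871 features, 3 of them with a missing value, and the procedure was tested on simulated data. Intervals are 95% intervals. The members, gene lists and tests were chosen with earlier results of these data known. Named beyond Homer1 were the 3 most correlated features for each member, apart from 1 host gene that is not reported here, and circRNAs of the listed partner and marker genes; some were described in detail after their values were seen.

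Replicates are separate immunoprecipitations from pooled mice. Replicate numbers were not used to pair the arrays in the main fit. Correlations of the deviations of same-numbered arrays ran from -0.10 to 0.65, with 2 of 9 over 0.1. Those 2 were between HuD RIP and WT RIP, with 0.65 for number 1 and 0.56 for number 2. Replicate 1 was the brightest array of each group. Whether the numbers mark a shared batch was not tested. Alternatives were other scalings, background corrections, filters, blocks, a brightness covariate, the authors' values and leaving out each array; the pair of arrays nearest in brightness was added after the data were seen. The number of arrays limits the precision.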

Additional observations from a re-analysis of the deposited data

How the results depend on the processing

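The median difference of the 4 circRNAs over WT RIP was 2.03 as reported, 3.52 without scaling, 1.13 with normexp background correction, 0.85 with array brightness as a covariate and 0.34 on the 2 arrays nearest in brightness. It ran from 1.57 to 2.71 when single arrays were left out. The median over IgG RIP was 1.52 as reported, 3.74 without scaling and -0.23 with the brightness covariate, and ran from 1.26 to 1.68 without single arrays. The other alternatives moved both medians by less than the spread between replicates. The cause of these shifts was not tested, except that removing the scaling adds the difference in brightness.

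In WT RIP minus IgG RIP, no alternative brought any of the overlapping circles past an adjusted p of 0.05. The lowest adjusted p was 0.143, for mmu_circRNA_19101 with the brightness covariate. The difference turned above 0 for mmu_circRNA_010239 and mmu_circRNA_26702 without scaling (0.29 and 0.13), with normexp (0.0797 and 0.13) and with the uncorrected signal (0.0407 and 0.15). The count of features called in this comparison was 1 as reported and 0 to 2 under the alternatives. For pairs on the same array, the change between these controls turned to -0.048 with normexp and -0.11 with the uncorrected signal for mmu_circRNA_010239 against mmu_circRNA_26702. With normexp it turned to 0.026 and 0.0739 for mmu_circRNA_010239 and mmu_circRNA_26702 against mmu_circRNA_26706, a feature that was not well above background on any IgG RIP array.

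With the replicate block, the medians stayed at 2.03 and 1.52. The control differences of the overlapping circles kept their values, with limma adjusted p of 0.559 to 0.924. Whether the numbers pair the arrays was not settled, and 5 of the 9 arrays correlated best with their own number in both other groups. The methods' t-test called 0 features in WT RIP minus IgG RIP after adjustment. Dim spots limit mmu_circRNA_26706, whose difference over IgG RIP was 1.80 on the processed signal, 0.24 with normexp and 0.67 in the authors' values, and mmu_circRNA_19101, whose difference over WT RIP was 0.76 and 1.14.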
